A study of Rattus norvegicus with 29 samples.

Results

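The plasma miRNAs of injured rats were compared between 2 study sites, Monash (Australia) and UCLA (USA). The 11 rats were every injured Monash library (5 rats) and every injured UCLA library (6 rats) among the 29 libraries of the series, chosen by their labels alone, and all 754 miRNAs of the count table entered. The series holds small-RNA sequencing of tail-vein plasma drawn 48 h after lateral fluid-percussion injury, a model of closed traumatic brain injury (TBI), or after a sham operation, at UEF (Finland), Monash and UCLA. All rats were adult male Sprague-Dawley. TBIN denotes an injured rat in which later video-EEG found no epilepsy (3 Monash, 3 UCLA), and TBIE an injured rat that had developed epilepsy (2 Monash, 3 UCLA). Monash and UCLA also gave 3 sham-operated rats each, and UEF gave 8 injured and 4 sham rats. Labels give 1 rat per library, and no 2 libraries of a group agreed within sampling noise. The p-values thus measure the spread between libraries, in which rats and sample handling cannot be told apart.

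The question was how far plasma from the same model differs between laboratories that worked to a harmonised protocol. Site stands for everything that differed between the laboratories at once. Per the study's methods, Monash bred its rats in house and gave buprenorphine and milk powder, whereas UCLA bought its rats from Charles River, gave flunixin meglumine, and fed chow medicated with trimethoprim and sulfamethoxazole. Feed and anaesthesia systems differed too, and UCLA kept no record of when exactly each sample was drawn. These cannot be told apart from one another here. Plasma of both sites was shipped frozen to UEF, and RNA extraction and sequencing were done by 1 provider.

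MicroRNAs are short RNAs that bind messenger RNAs through their seed, bases 2 to 8, and lower translation and message stability. Cells release them into plasma in vesicles or bound to protein, and several are enriched in certain tissues. miR-122 is enriched in hepatocytes, miR-1, miR-133a and miR-206 in muscle, and miR-143 and miR-145 in smooth muscle. Likewise, miR-140 and miR-455 are enriched in cartilage, and miR-451, miR-144 and miR-486 in red blood cells. Their plasma level can thus reflect release from those tissues, and cell damage or rupture of red cells at sampling can raise it. Tissue names used below mark where the RNA may come from, and its source was not tested. In bulk plasma, more releasing cells and more miRNA released per cell cannot be told apart.

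The sequences that carry the comparison are given first, from RefSeq (GRCr8), with the seed in capitals. Seeds were compared only among the 693 mature names with a sequence there, which leaves out part of the count table. The liver and smooth-muscle miRNAs that were higher at Monash each had a seed that no other of these names shared:
miR-122-5p: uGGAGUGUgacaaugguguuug
miR-122-3p: aACGCCAUcaucacacuaa
miR-143-5p: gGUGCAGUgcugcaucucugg

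The muscle miRNAs fell into 2 seed families, miR-1 with miR-206 and miR-133a with miR-133b:
miR-1-3p: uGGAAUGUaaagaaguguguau
miR-1b: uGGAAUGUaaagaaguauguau
miR-206-3p: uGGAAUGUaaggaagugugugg
miR-133a-3p: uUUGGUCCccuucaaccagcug
miR-133b-3p: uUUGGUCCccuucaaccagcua

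A further 3 names lie on the strand opposite to tissue miRNAs and are shown because they moved with them. A run of 20 bases of miR-3591 is the reverse complement of miR-122-5p, all 21 bases of miR-133c are that of miR-133a-3p, and 21 of the 23 bases of miR-3571 are that of miR-1-3p:
miR-3591: aACACCAUugucacacucca
miR-133c: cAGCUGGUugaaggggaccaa
miR-3571: uACACACUucuuuacauuccaua

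The miRNAs that were higher at UCLA came mostly from 2 places, the Mir140 hairpin and a group of neighbouring hairpins on the X chromosome (Mir322, Mir503, Mir351, Mir542, Mir450a1 and Mir450b-1, all on 1 strand). They are shown with partner arms that differed less, and last comes miR-298-5p, which was also higher at UCLA and lies on chromosome 3:
miR-140-3p: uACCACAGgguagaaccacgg
miR-140-5p: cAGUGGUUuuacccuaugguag
miR-322-3p: aAACAUGAagcgcugcaaca
miR-322-5p: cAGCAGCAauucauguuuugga
miR-503-3p: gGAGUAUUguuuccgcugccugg
miR-503-5p: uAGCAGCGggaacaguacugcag
miR-351-3p: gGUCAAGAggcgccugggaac
miR-298-5p: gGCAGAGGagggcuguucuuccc

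Total miRNA counts were 1320300 to 3395469 in the injured Monash libraries and 2163966 to 3976506 in those of UCLA, and 688 to 735 miRNAs had 10 or more counts in a library. Some features of the libraries touch the results and come first. UCLA TBIE 1 stood apart from the other 5 UCLA rats for the cartilage and X-chromosome miRNAs: it held miR-503-3p at 110 CPM (counts scaled to the library total and by TMM factors over the 29 libraries), against 1371 to 2551 CPM in the others, and miR-140-3p at 9529 CPM against 26255 to 64871 CPM. Its miR-486 (183355 CPM) and miR-122-5p (21612 CPM) lay with or above the other UCLA rats, outside the Monash range for miR-486. Some values that rest on this rat are given with and without it, and the others with it only. Since it was noticed for the cartilage and X-chromosome miRNAs, values without it are a description and no test. Its label could not be checked here.

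The second feature divided the 29 libraries into 9 and 20. In the 3 Monash sham, 3 Monash TBIN and 3 UCLA TBIE libraries miR-337-3p was at 6.47 to 10.8 CPM, and in the 20 others, all UEF libraries among them, at 36.1 to 110 CPM. Of 747 miRNAs, 21 did not overlap between the 9 and the 20, and all 21 were higher in the 20. The labels name no batch, and whether the labels of these libraries were assigned correctly was not tested, so that site and outcome are as labelled throughout. Among injured rats this division is the same as the site-by-outcome interaction, so that they cannot be told apart, and it crosses the site comparison: each site had rats on both sides. A second model with a site-by-outcome term, in which site was averaged over TBIN and TBIE, was therefore added after the division had been seen.

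**Figure D1:**
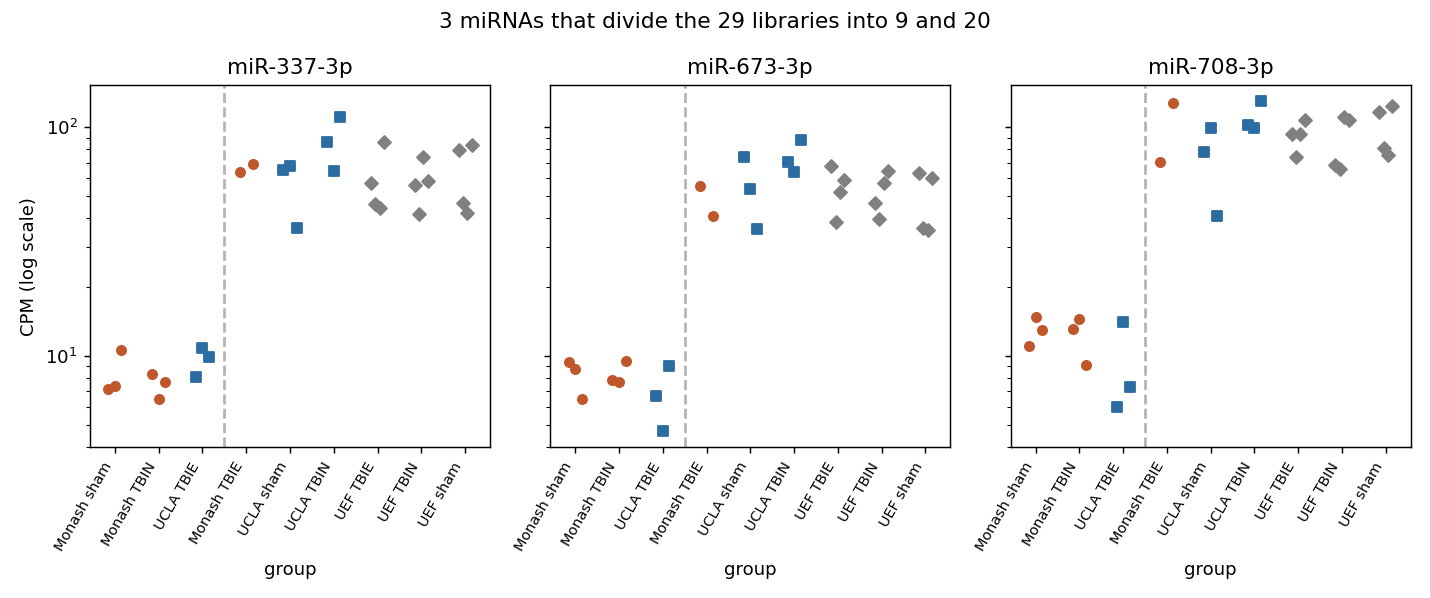
Level of miR-337-3p, miR-673-3p and miR-708-3p in the 29 libraries (CPM, log axis; 1 point per rat; circles Monash, squares UCLA, diamonds UEF). Left of the dashed line are the 9 libraries of Monash sham, Monash TBIN and UCLA TBIE, in which miR-337-3p lay at 6.47 to 10.8 CPM, and right of it the 20 others, at 36.1 to 110 CPM.

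Few miRNAs passed the test between Monash and UCLA plasma, only some of them tissue miRNAs, and the calls depended on single rats. Of 732 miRNAs tested in the 11 rats with a model of site and outcome, 10 (1.37%) differed at an adjusted p below 0.05 (edgeR quasi-likelihood test, Benjamini-Hochberg): 4 (0.546%) were higher at Monash and 6 (0.82%) higher at UCLA. The liver miRNAs miR-122-5p and miR-122-3p, the muscle-locus miR-133c and the smooth-muscle miR-143-5p were higher at Monash. The cartilage miRNA miR-140-3p, the X-chromosome miRNAs miR-503-3p, miR-351-3p and miR-322-3p, and miR-298-5p and the red cell miRNA miR-486 were higher at UCLA. All 10 had the same adjusted p of 0.0436, and 98 miRNAs had an unadjusted p below 0.05.

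These calls lay close to the threshold. Without Monash TBIE 1, Monash TBIN 1, UCLA TBIE 2, UCLA TBIE 3, UCLA TBIN 1, UCLA TBIN 2 or UCLA TBIN 3, each left out alone, the same test called 0, with 71 to 100 at an unadjusted p below 0.05. It called 1 without Monash TBIN 3, 7 without Monash TBIN 2, 15 without Monash TBIE 2, and 28 (3.84% of 730) without UCLA TBIE 1. The sign of none of the 10 turned in any of these fits. miR-140-3p, miR-503-3p, miR-351-3p, miR-322-3p and miR-486 passed in 1 of the 11 fits, that without UCLA TBIE 1, miR-298-5p in 2, both miR-122 arms and miR-143-5p in 3 and miR-133c in 4. DESeq2 called 50, with all 10 among them.

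With the site-by-outcome term, 31 miRNAs passed (4.23% of 732), 18 higher at Monash (2.46%) and 13 higher at UCLA (1.78%), the 10 above among them. The biological coefficient of variation fell from 0.487 to 0.396 with this term. The same model called 34 (4.66% of 730) without UCLA TBIE 1, of which 28 were among the 31. It too called 0 without Monash TBIE 1, UCLA TBIE 2, UCLA TBIE 3, UCLA TBIN 1 or UCLA TBIN 2, with 111 to 123 at an unadjusted p below 0.05, while DESeq2 with this term called 71, with all 31 among them.

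The direction of the calls depended on the scaling. With library totals alone 17 of 18 calls were higher at Monash, the median difference of all miRNAs moving by 0.27 on the log2 scale. With miR-28-3p, the study's reference miRNA, as the only scale, 12 of 14 were. With factors from DESeq2 the split was 8 against 6, with the upper quartile 8 against 8, and with TMM over the 11 rats 10 against 7. These 10 miRNAs kept their sign under these 5 scalings.

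**Figure D2:**
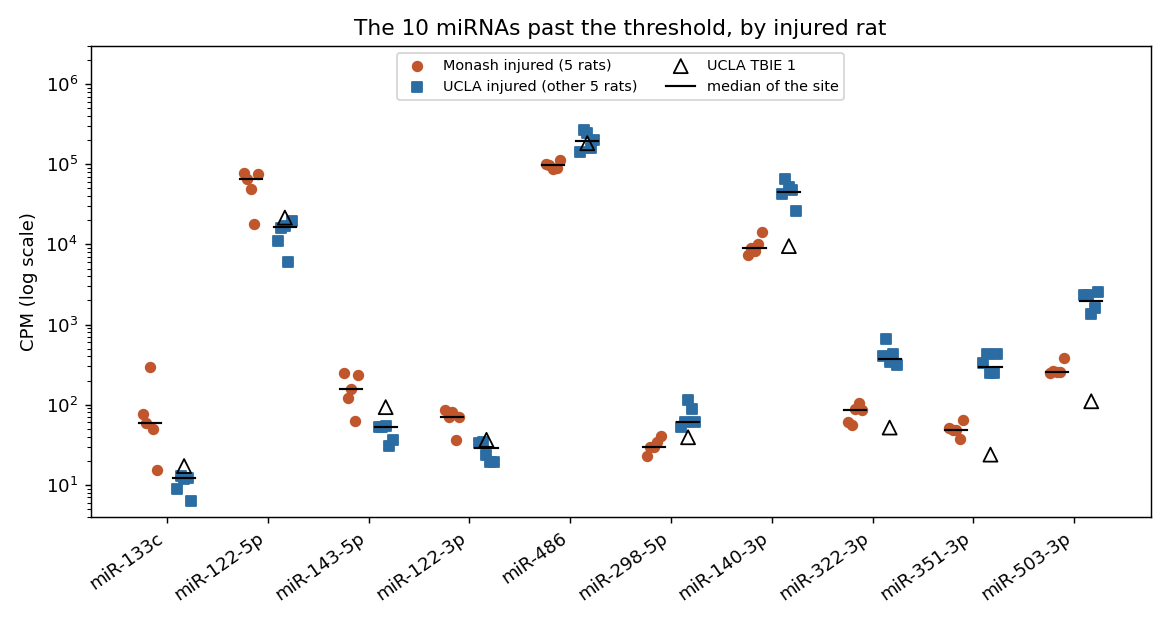
Level of the 10 miRNAs past the threshold in each injured rat (CPM, log axis; circles the 5 Monash rats, squares 5 UCLA rats, open triangle UCLA TBIE 1, bars the median of all rats of a site). For miR-140-3p, miR-322-3p, miR-351-3p and miR-503-3p the open triangle lies among or below the Monash rats, and for miR-486 the sites do not overlap.

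Both arms of liver miR-122 were higher at Monash. miR-122-5p, the dominant miRNA of hepatocytes, was at 78818, 65410, 49417, 17777 and 76739 CPM in Monash TBIE 1 and 2 and TBIN 1, 2 and 3. At UCLA it ranged from 5962 to 21612 CPM (median 16454). Of the 5 Monash rats 4 lay above every UCLA rat, and Monash TBIN 2 lay inside the UCLA range. The log2 difference, Monash minus UCLA, was 1.94 ± 0.40 (SE, n = 5 and 6; 3.84-fold; adjusted p = 0.0436 with edgeR).

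The other arm of the same hairpin followed the same rats. miR-122-3p was at 84.8, 69.9, 80.8, 36.3 and 69.5 CPM at Monash, and 19.3 to 36.4 CPM at UCLA (median 28.6), so that Monash TBIN 2 alone reached the UCLA range. Its log2 difference was 1.39 ± 0.26 (adjusted p = 0.0436). Of the 5 liver miRNAs all had a positive difference and 2 passed, against 1.37% of all miRNAs, with a median of 1.39 against 0.05 over all 732. With the site-by-outcome term 3 passed, against 4.23%. These were the miR-122 arms and miR-3591, which lies on the opposite strand of the same locus. The calls of this list thus come from a single locus. miR-802-5p (0.51, adjusted p = 0.369) and miR-802-3p (1.05, adjusted p = 0.413), a second hepatocyte miRNA, did not pass. The miR-192, miR-194 and miR-215 list, made by both liver and gut, had no call among 5 and a median of 0.08.

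The 8 injured UEF rats held miR-122-5p at 24540 to 251571 CPM (median 50780), all above the highest UCLA rat. The summed level of the liver list was 18363 to 80343 CPM at Monash and 6183 to 22124 CPM at UCLA.

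Smooth-muscle miRNAs showed the same order. miR-143 and miR-145 are made from neighbouring hairpins and keep vascular smooth muscle in its contractile state. miR-143-5p was at 246, 121, 155, 63.5 and 235 CPM at Monash and at 30.5 to 93.2 CPM at UCLA (median 52.7), with a log2 difference of 1.70 ± 0.36 (3.26-fold; adjusted p = 0.0436). The sites overlapped only through Monash TBIN 2 and UCLA TBIE 1, the lowest and the highest rat of their sites.

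The abundant arm miR-143-3p was at 21266, 7749, 14163, 6307 and 25715 CPM at Monash and at 1069 to 12898 CPM at UCLA (median 3396). Its difference of 2.12 ± 0.57 had an adjusted p of 0.0763, and was 2.48 without UCLA TBIE 1, its highest UCLA rat. miR-145-5p (1.76, adjusted p = 0.0541) and miR-145-3p (1.81, adjusted p = 0.0616) missed the threshold as well, and all 4 arms passed with the site-by-outcome term (4.23% of all miRNAs did). The endothelial miR-126a arms did not pass, with log2 differences of 0.50 and 0.10. Of the 6 vessel miRNAs 1 passed, against 1.37% of all, and their median was 1.73.

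Muscle miRNAs had the highest log2 differences of the 732 and varied widely between rats. miR-133a-3p and miR-133b-3p, which share 1 entry of the count table, were together at 2447, 477, 7903, 1064 and 343 CPM at Monash and at 102 to 382 CPM at UCLA (median 180). Of the 5 Monash rats 4 exceeded every UCLA rat, and Monash TBIN 3 lay inside the UCLA range. The log2 difference was 3.53 ± 0.82 (11.6-fold) and just missed the threshold (adjusted p = 0.053), and it passed with the site-by-outcome term (3.36 ± 0.69, adjusted p = 0.0268). Without Monash TBIN 1 it was 2.29 in the model of site and outcome.

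One rat led the rest of this group. miR-206-3p, the skeletal-muscle member of the miR-1 family, was at 3353, 257, 20600, 3064 and 291 CPM at Monash and 135 to 594 CPM at UCLA (median 231). miR-1-3p was at 424, 86.3, 12481, 505 and 115 CPM at Monash and 29.5 to 218 CPM at UCLA (median 62.9), and miR-1b, a near-identical copy from another locus, at 230, 50.3, 7575, 389 and 106 CPM and 14.7 to 179 CPM (median 45.1). Monash TBIN 1 was the highest rat for all 3, and Monash TBIE 2 and TBIN 3 lay inside the UCLA range. The log2 differences were 4.24 ± 1.18 (adjusted p = 0.0861), 5.01 ± 1.84 (0.217) and 4.97 ± 1.98 (0.279), and with the site-by-outcome term 3.84 ± 0.85, 3.97 ± 0.92 and 3.76 ± 0.87, which passed (adjusted p = 0.0286 for each). For miR-1-3p and miR-1b this is an average over unlike values, since the site difference itself differed between outcomes (adjusted p = 0.0427 and 0.0256). In TBIN rats alone it was 7.08 for miR-1-3p and 7.15 for miR-1b, and in TBIE rats alone 0.87 and 0.36. Without Monash TBIN 1 the averages were 2.06 and 2.04, and each of the 3 miRNAs passed in 5 of the 11 fits with this term that left out 1 rat. Reads of miR-1-3p and miR-1b, and of miR-133a-3p and miR-133b-3p, can be assigned to either near-identical name.

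The heart-enriched members of the list did not pass. miR-208a-3p was at 0.57 (adjusted p = 0.756), miR-208b-3p at 0.00 (1.00) and miR-499-5p at -0.14 (0.949) on the log2 scale. Of the 11 members tested 8 had a positive difference, none passed, and the median was 0.57, while 3 passed with the site-by-outcome term, against 4.23% of all. The summed level of the list was 840 to 41102 CPM at Monash and 468 to 1172 CPM at UCLA.

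The opposite-strand names followed their partners. miR-133c was at 77.4, 58.6, 297, 49.6 and 15.4 CPM at Monash and 6.30 to 17.2 CPM at UCLA (median 12.1), a log2 difference of 3.05 ± 0.63 (8.26-fold; adjusted p = 0.0436) that was 2.04 without Monash TBIN 1 (adjusted p = 0.0921 with edgeR), and its count was 3.16% to 12.3% of the combined miR-133a-3p and miR-133b-3p count at Monash and 3.76% to 8.45% at UCLA. miR-3591 was at 1352, 979, 744, 355 and 1200 CPM at Monash and 145 to 423 CPM at UCLA (median 368), with a difference of 1.48 ± 0.36 (adjusted p = 0.0569). It stood at 1.5% to 2.00% of the miR-122-5p count at Monash and 1.96% to 2.52% at UCLA. miR-3571 ranged from 10.4% to 185% of miR-1-3p at Monash and 33.8% to 163% at UCLA, a looser tie, with a log2 difference of 2.79 ± 0.78 (adjusted p = 0.0861). Whether these counts are transcripts of the opposite strand or copies of the abundant partner was not tested.

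**Figure D3:**
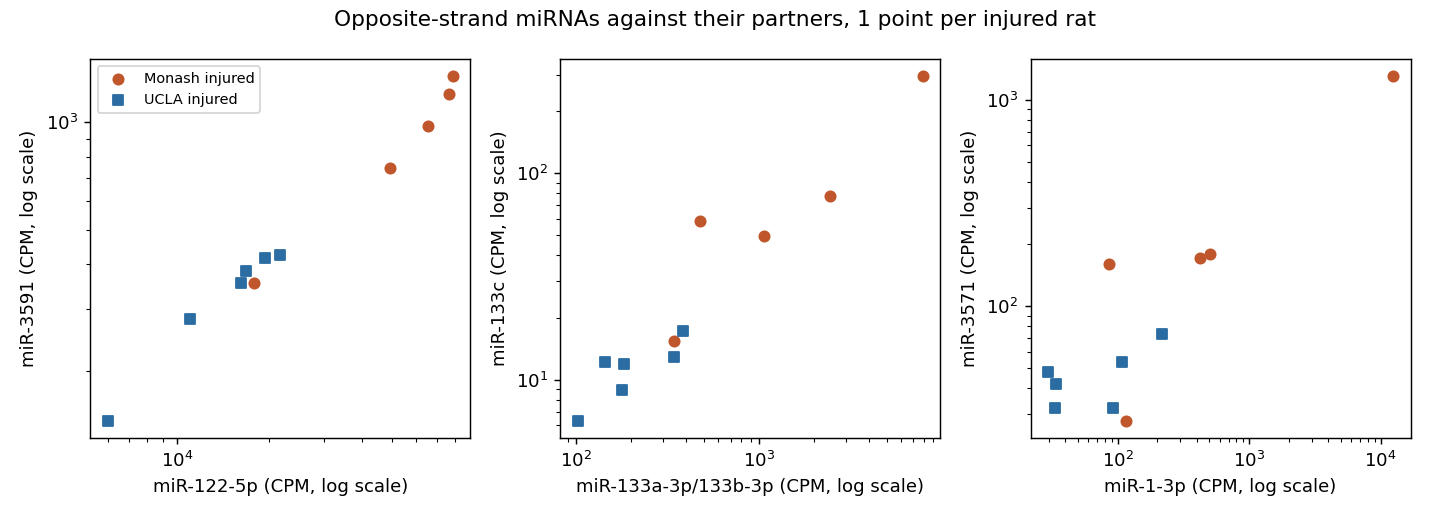
Level of 3 opposite-strand miRNAs (vertical axes, CPM, log scale) against their reverse-complement partners (horizontal axes, CPM, log scale), 1 point per injured rat, circles Monash and squares UCLA. miR-3591 stayed at 1.5% to 2.52% of the count of miR-122-5p over the 11 rats, and miR-3571 varied from 10.4% to 185% of that of miR-1-3p.

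A cartilage miRNA was higher at UCLA. miR-140-3p, made from an intron of the cartilage gene Wwp2, was at 7464, 9130, 8320, 10246 and 14215 CPM at Monash and at 9529 to 64871 CPM at UCLA (median 45597). Every UCLA rat but TBIE 1 lay above every Monash rat. The log2 difference was -2.08 ± 0.43 (4.22-fold higher at UCLA; adjusted p = 0.0436), and -2.25 without UCLA TBIE 1. It did not pass with any other single rat left out (highest adjusted p = 0.147 with edgeR).

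All 4 cartilage arms had a negative difference, with a median of -2.18, and 1 of them passed, against 1.37% of all. miR-455-5p was at 89.1, 132, 124, 156 and 205 CPM at Monash and 64.8 to 1071 CPM at UCLA (median 747), with a difference of -2.31 ± 0.55 (adjusted p = 0.0541). Its partner miR-455-3p differed by -2.28 ± 0.58 (0.0628) and miR-140-5p by -1.65 ± 0.44 (0.0747). All 4 passed with the site-by-outcome term, against 4.23% of all. Injured UEF rats had miR-140-3p at 4809 to 10763 CPM, below every UCLA rat but TBIE 1.

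The X-chromosome cluster followed the same rats. The products of this cluster restrain the cell cycle and rise as muscle cells differentiate. miR-503-3p was at 251, 264, 259, 257 and 384 CPM at Monash and 110 to 2551 CPM at UCLA (median 1965), a difference of -2.62 ± 0.58 (6.16-fold higher at UCLA; adjusted p = 0.0436). miR-351-3p was at 51.0, 47.8, 48.5, 37.6 and 65.2 CPM against 23.8 to 435 CPM (median 292), and miR-322-3p at 61.5, 55.3, 88.2, 105 and 85.3 CPM against 51.9 to 668 CPM (median 376). In all 3, UCLA TBIE 1 was the lowest of the 11 rats and the 5 other UCLA rats lay above every Monash rat.

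Their log2 differences were -2.54 ± 0.54 for miR-351-3p and -2.27 ± 0.49 for miR-322-3p. Without UCLA TBIE 1 they were -2.76 and -2.45, with miR-503-3p at -2.84.

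Arms of 1 hairpin had unequal differences in this cluster. miR-322-5p, which shares its seed with miR-16-5p, miR-15b-5p, miR-195-5p and miR-497-5p, was at 159, 131, 235, 369 and 316 CPM at Monash and 145 to 465 CPM at UCLA, with a difference of -0.11 ± 0.42 (adjusted p = 0.95), whereas its partner arm passed at -2.27. The difference between the arms was not tested. miR-503-5p differed by -1.52 ± 0.40 (0.0678) and miR-351-5p by -1.48 ± 0.46 (0.14). Of the 11 arms of the cluster, 10 had a negative difference, 3 passed, against 1.37% of all, and the median was -1.16. With the site-by-outcome term 4 passed, against 4.23%, and without UCLA TBIE 1 8 passed, against 4.66%. The injured UEF rats held miR-503-3p at 108 to 327 CPM, again below every UCLA rat but TBIE 1.

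miR-298-5p, from the imprinted Gnas region, was at 22.7, 29.7, 29.7, 34.5 and 40.3 CPM at Monash and 39.2 to 115 CPM at UCLA (median 60.8), with a log2 difference of -1.16 ± 0.26 (2.24-fold higher at UCLA; adjusted p = 0.0436). Only UCLA TBIE 1 reached the Monash range. Its partner miR-298-3p was low (6.58 to 64.7 CPM over the 11 rats) and differed in the other direction by 1.32 ± 0.49 without passing (0.217).

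The red cell miRNA miR-486, one of the 2 most abundant miRNAs (14.7% of counts on average), was higher at UCLA. It was at 100586, 98617, 87256, 88674 and 113016 CPM at Monash and 143080 to 267668 CPM at UCLA (median 193285), with a log2 difference of -1.04 ± 0.23 (2.06-fold higher at UCLA; adjusted p = 0.0436). The sites did not overlap, which held for 10 of the 732 miRNAs (1.37%), and for 38 (5.19%) without UCLA TBIE 1.

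The other red cell miRNAs did not pass. miR-451-5p was at 1119, 1224, 1337, 1887 and 1815 CPM at Monash and 848 to 3879 CPM at UCLA (median 2765), with a difference of -0.82 ± 0.40 (0.402). miR-451-3p differed by -0.53 (0.373), miR-144-5p by -0.13 (0.95) and miR-144-3p by 0.01 (0.996). The list had 1 call among 5, against 1.37% of all, and a median of -0.53. In sham rats its median was 0.93, with 2 members higher at Monash. Its summed level was 88822 to 115138 CPM at Monash and 144836 to 271942 CPM at UCLA.

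The log2 ratio of miR-451-5p to miR-23a-3p sets a red cell miRNA against a reference miRNA. It was -2.61 ± 0.25 (SD, n = 5) at Monash and -1.84 ± 0.50 (SD, n = 6) at UCLA. The difference was -0.76 (exact two-sided permutation test over 462 arrangements, p = 0.0216, and 0.0649 adjusted over 3 library measures). The smallest p this design allows is 0.00433. The study assessed haemolysis in its sequenced sham and injured samples by qPCR of miR-23a and miR-451 and by absorbance. It reported no haemolysis by qPCR in any sample and no site difference in mean absorbance. Single samples of Monash and UCLA slightly exceeded its absorbance limit. With miR-486 in place of miR-451-5p the ratio differed by -1.12 and passed. Since miR-486 was itself called between these same rats, this ratio is a description and no further test. When the ratio entered the model as a further term, edgeR called 0 of 732 miRNAs, with 58 at an unadjusted p below 0.05. Total counts (2323460 ± 833556 against 2800030 ± 721489, exact permutation p = 0.355) and the number of detected miRNAs (717 ± 12.8 against 714 ± 19.0, p = 0.788) did not pass.

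miRNAs of other blood cells gave no call. miR-150-5p of lymphocytes was at 19765, 35189, 28126, 20432 and 36439 CPM at Monash and 39213 to 60013 CPM at UCLA. Its groups did not overlap, yet the difference of -0.82 ± 0.26 had an adjusted p of 0.14. miR-223-3p of neutrophils and platelets was at 27753 to 87357 CPM at Monash and 20360 to 85531 CPM at UCLA (0.39, adjusted p = 0.843). Of the 26 members tested of the miR-17 to miR-92a cluster and its paralogs, 20 had a negative difference, with a median of -0.40 and no call. miR-25-3p, a member abundant in red cells, differed by -0.94 ± 0.28 (0.121), and by -0.98 ± 0.25 with the site-by-outcome term (0.0447).

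**Figure D4:**
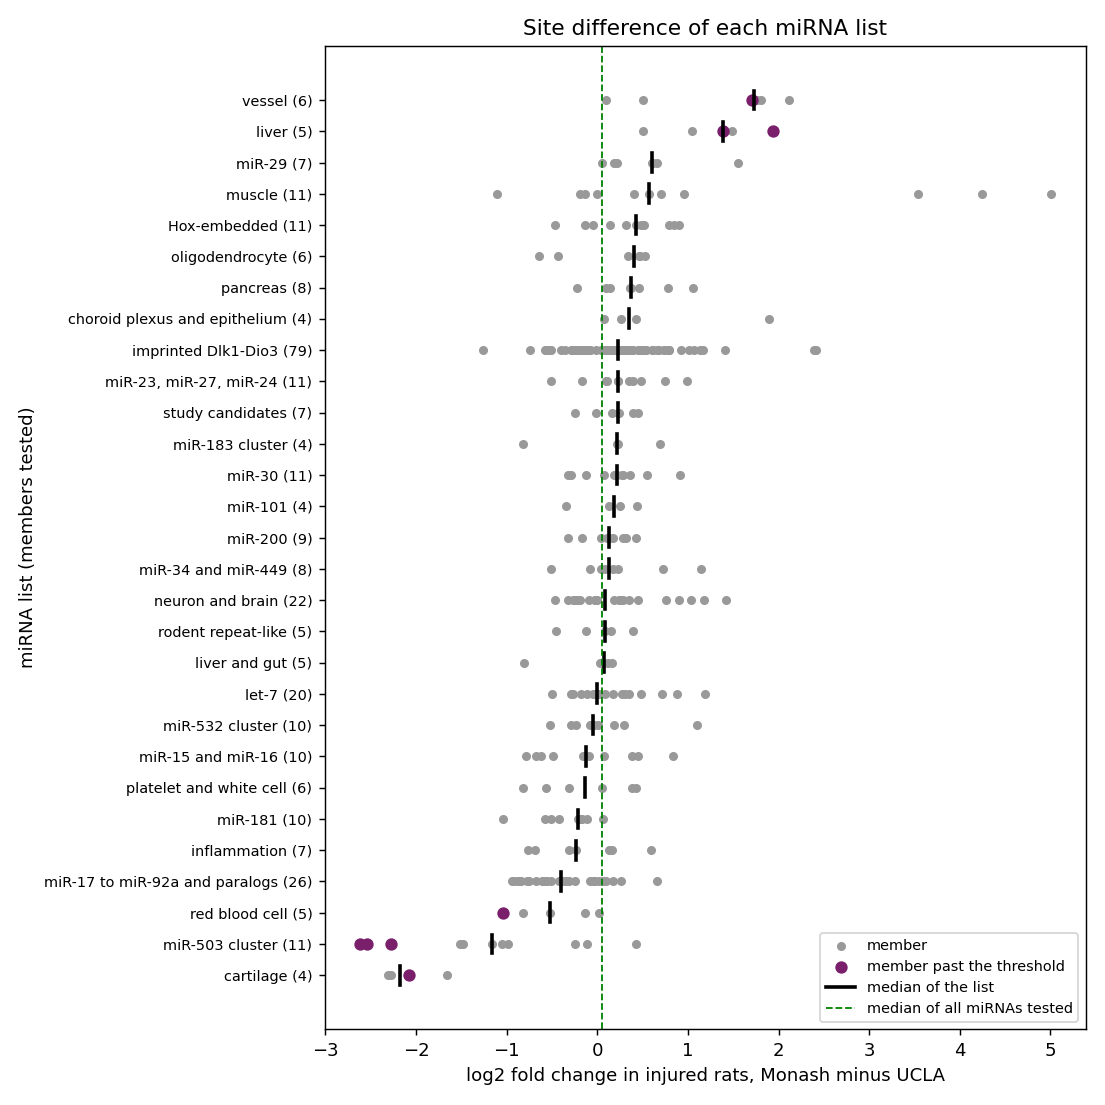
Log2 difference in injured rats, Monash minus UCLA, of every tested member of 29 miRNA lists (horizontal axis), 1 row per list with the number tested, purple where a member passed, black bars for the list medians and a dashed line for the median of all 732 miRNAs, 0.05. The cartilage (-2.18) and miR-503 cluster (-1.16) medians lie furthest to the UCLA side and the vessel (1.73) and liver (1.39) medians furthest to the Monash side.

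Brain miRNAs gave no call either. Of the 22 neuron and brain miRNAs 11 had a positive and 11 a negative difference, with a median of 0.09 and a range of -0.46 to 1.42. The 7 miRNAs that the study took forward as candidates lay between -0.25 (miR-212-3p) and 0.45 (miR-132-3p), with miR-434-3p, miR-9a-3p, miR-183-5p, miR-323-3p and miR-124-3p in between, and had adjusted p-values of 0.638 to 0.995. Neuronal miR-124-3p was at 69.5, 33.1, 48.5, 24.3 and 19.0 CPM at Monash and 30.1 to 41.8 CPM at UCLA. The reference miR-28-3p was at 389 to 670 CPM at Monash and 412 to 618 CPM at UCLA (-0.06 ± 0.25, adjusted p = 0.95). The lists of imprinted Dlk1-Dio3 (79 tested, median 0.23), let-7 (20, -0.00), miR-30 (11, 0.21), miR-29 (7, 0.60), miR-200 (9, 0.13) and inflammation miRNAs (7, -0.23) had no call in either model.

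Other miRNAs passed with the site-by-outcome term but not in the model of site and outcome over the 11 rats, and were named after their values had been seen. miR-204-5p, made in the choroid plexus and in pigment and other epithelia, was at 135, 98.0, 179, 63.5 and 210 CPM at Monash and 18.5 to 112 CPM at UCLA (median 30.5), with a difference of 1.77 ± 0.37 (adjusted p = 0.0268; 1.89 ± 0.48 and 0.0619 without the term). Its family partner miR-211-5p, with the same seed, did not pass (0.43, adjusted p = 0.794). miR-190a-5p was at 30.1, 32.3, 75.5, 18.2 and 90.8 CPM at Monash and 2.36 to 23.1 CPM at UCLA, and had a difference of 2.38 ± 0.41 (0.0255). That value averages unlike differences, since its site difference in TBIE minus that in TBIN rats was -2.77 and passed. miR-582-3p (1.31), miR-676 (1.33) and miR-335 (1.15) were the other miRNAs higher at Monash. They passed in 4, 3 and 2 of the 11 fits with this term that left out 1 rat. Without Monash TBIE 1, miR-582-3p was at 0.65 and miR-676 at 0.95. miR-210-3p, the hypoxia-induced miRNA, was lower at Monash (-1.29 ± 0.31, adjusted p = 0.0334), with 87.9, 87.1, 105, 93.6 and 142 CPM there and 118 to 384 CPM at UCLA. miR-181a-1-3p was too (-1.07 ± 0.27, 0.0379).

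The 13 miRNAs higher at UCLA in that model had a median GC content of 56.5% (11 with a sequence), the 18 higher at Monash one of 45.5% (16 with a sequence), and all those tested 47.8% (652 with a sequence). The 3p arm was named in 8 of 13, 7 of 18 and 303 of 732.

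The rats on each side of the division of libraries were next compared. In both comparisons site cannot be told apart from later epilepsy. Between Monash TBIN and UCLA TBIE (3 rats each, all among the 9) edgeR called 0 of 715, with 64 at an unadjusted p below 0.05. Between Monash TBIE and UCLA TBIN (2 and 3 rats, all among the 20) it called 28 of 743 (3.77%). UCLA TBIE 1, set apart above, is in the first comparison and not in the second. The 10 miRNAs above were chosen on these same rats, so that their values here are a description. miR-503-3p differed by -2.41 in the first and -2.83 in the second, miR-140-3p by -1.84 and -2.35, miR-122-5p by 1.56 and 2.36, and miR-486 by -1.04 and -1.03.

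Many miRNAs, none of them among the 10, had a site difference in TBIE rats unlike that in TBIN rats, a contrast that cannot be told apart from the division of libraries. The interaction, the site difference in TBIE minus that in TBIN rats, passed for 125 of 747 miRNAs (16.7%), 78 positive and 47 negative, and these include 3 of the 31. It was 6.32 ± 0.46 for miR-337-3p (adjusted p = 3.23e-06), 5.95 ± 0.48 for miR-673-3p and 6.62 ± 0.57 for miR-708-3p. miR-337-3p was at 63.9 and 68.7 CPM in Monash TBIE and 6.47 to 8.30 CPM in Monash TBIN rats, but at 8.06 to 10.8 CPM in UCLA TBIE and 64.3 to 110 CPM in UCLA TBIN rats. The Monash sham rats, which had no injury, were at 7.18 to 10.6 CPM and the UCLA sham rats at 36.1 to 67.5 CPM. At UEF it was at 41.9 to 73.8 CPM in TBIN and 44.4 to 85.9 CPM in TBIE rats. Sequences of the 47 negative miRNAs had a median GC content of 38.1% and began with U in 31 of 46, against 45.8% and 18 of 65 for the 78 positive ones. Over the 732 miRNAs of the site comparison these values were 47.8% and 236 of 652.

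Uninjured rats of the same sites were compared for reference. Between the 3 Monash and 3 UCLA sham rats, 65 of 727 miRNAs differed (8.94%), but these 6 libraries also lie on opposite sides of the division, so that site and division cannot be told apart there, and 34 of the 65 were among the 125 of the interaction above. All 10 miRNAs had the same sign in sham as in injured rats (427 of 722 measured in both did), and 6 of the 10 passed in sham rats. miR-122-5p differed by 2.74 ± 0.38 (adjusted p = 0.00253), miR-133c by 3.82 ± 0.82 (0.0151), miR-503-3p by -1.86 ± 0.38 (0.0119) and miR-351-3p by -1.64 ± 0.33 (0.0119). miR-140-3p (-1.0, adjusted p = 0.207), miR-143-5p (1.5, 0.0811), miR-298-5p (-0.62, 0.276) and miR-486 (-0.20, 0.795) did not pass. miR-486 was at 65564 to 157452 CPM in Monash and 61758 to 147367 CPM in UCLA sham rats.

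The difference between injured and sham rats in the site effect was tested directly. It passed for 20 of 750 miRNAs (2.67%), none of them among the 10 or the 31, and 18 of the 20 were among the 125. miR-673-3p (2.55 ± 0.42, adjusted p = 0.00515), miR-337-3p (2.39 ± 0.40, 0.00515) and miR-708-3p (2.62 ± 0.48, 0.00894) had the lowest p. The effect of the division, as estimated in injured rats, was then taken out. This left the site difference in TBIN rats minus that in sham rats, with no weight on TBIE rats. There edgeR called 0 of 750, with 56 at an unadjusted p below 0.05. That contrast rests on fewer rats, so that its count cannot be set against the 20. Of the 31 miRNAs, 29 had the same sign in sham rats, and miR-204-5p (-0.75 ± 0.49 in sham, adjusted p = 0.341) and miR-25-3p (0.28 ± 0.45, 0.715) did not.

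**Figure D5:**
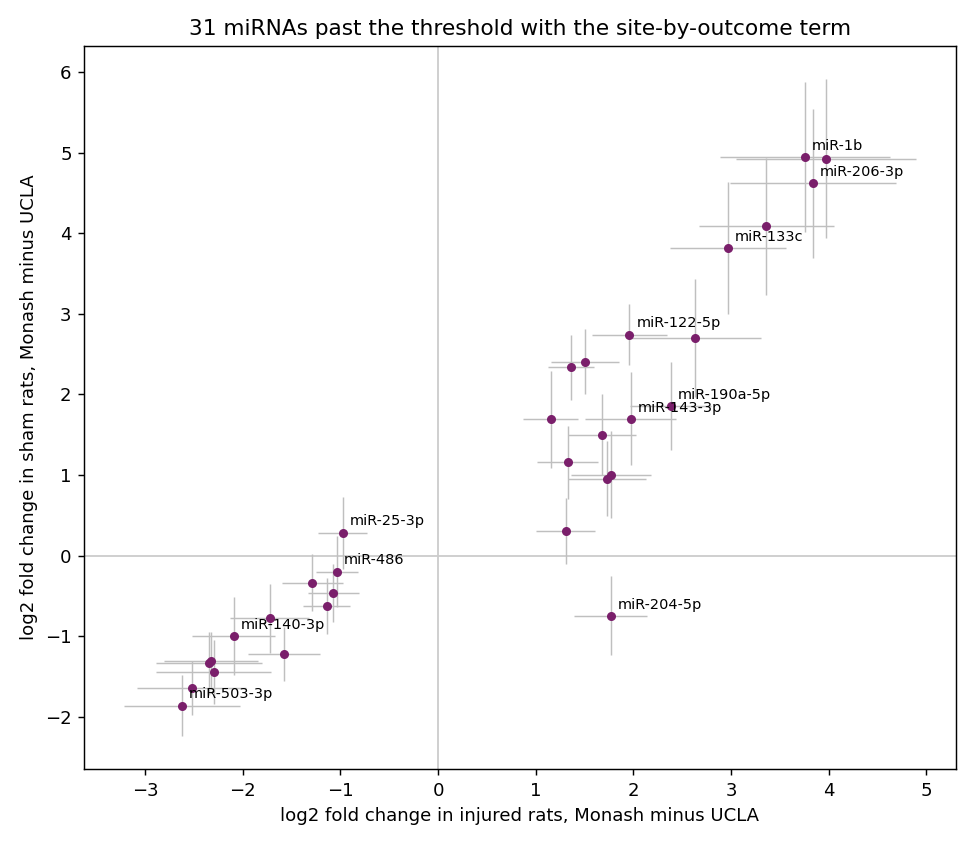
Log2 difference, Monash minus UCLA, in injured rats with the site-by-outcome term (horizontal axis, 11 rats) and in sham rats (vertical axis, 6 rats) for the 31 miRNAs that passed in that model, with standard errors as bars. The signs are the same for 29 of 31, and miR-204-5p (1.77 and -0.75) and miR-25-3p (-0.98 and 0.28) are the others.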

How the data were processed

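Small RNAs of plasma from 29 rats were sequenced at 1 provider (QIASeq libraries, NextSeq 550). The authors deposited raw read counts per mature miRNA for each rat. The submitters' processing notes name cutadapt, Bowtie and Rnor_6.0 without versions, and whether molecular identifiers were merged is not given in the sources used here. Sites and outcomes were taken from the labels. The miRNAs compared, and the lists they are grouped in, were chosen with earlier results of these data known.

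Counts were scaled with TMM factors over the 29 libraries, and CPM values printed are scaled in this way. miRNAs were filtered by expression in the 11 injured rats (minimum count 10) and compared by the quasi-likelihood test of edgeR 4.0.16 in R 4.3.3, with limma 3.58.1, in a model of site and outcome, with Benjamini-Hochberg adjustment over all miRNAs tested and a threshold of 0.05. Sham rats and the 2 interactions, injured against sham and TBIE against TBIN, were fitted alike. Log2 differences are Monash minus UCLA with the model's standard error. Totals, detected miRNAs and the red cell ratio were compared by exact two-sided permutation tests (scipy 1.17.1). The script was tested on simulated data. Counts of 1320300 to 3976506 per injured library limit the precision of low miRNAs.

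Named miRNAs were every miRNA past the threshold with both arms of its hairpin, from each list the 2 with the lowest p and the 1 with the highest mean CPM, the study's candidates and reference, and the 3 with the lowest p in each interaction. Others, among them miR-1-3p, miR-1b, miR-3591, miR-3571, miR-145-3p and miR-455-3p, were named after their values had been seen. Alternatives were DESeq2 1.42.0, other scalings, filters, covariates, thinned counts, all 29 rats and leaving out each rat. The site-by-outcome term, its fits without single rats and the comparisons within each side of the division were added after the data had been seen. Replicate numbers did not pair the rats, since deviations of same-numbered rats correlated at -0.04 to 0.11. Mature sequences came from RefSeq (GRCr8), with 652 of the 732 tested miRNAs matched. Its gene positions were used only to find hairpins within 10000 bases of each other and their strands.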

Additional observations from a re-analysis of the deposited data

Results flagged for a closer look

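Single rats stood apart from their site in 12 of 106 groups examined (Dixon's test on log2 CPM, nominal rate 5%). These groups are not independent, since they hold arms of the same hairpins and clusters in the same rats. The count can thus not be set against chance. UCLA TBIE 1, already noticed for the cartilage and X-chromosome miRNAs, accounts for 9 of the 12. It was the lowest injured UCLA rat for miR-351-3p (23.8 CPM), miR-322-3p (51.9 CPM), miR-503-3p (110 CPM), miR-455-5p (64.8 CPM), miR-455-3p (51.2 CPM), miR-351-5p (471 CPM) and miR-124-3p (30.1 CPM), and the highest for miR-676 (248 CPM) and miR-211-5p (39.9 CPM). At Monash, TBIN 2 was lowest for miR-122-3p (36.3 CPM), TBIN 3 highest for miR-503-3p (384 CPM) and TBIE 1 highest for miR-582-3p (805 CPM).

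The site difference in TBIE rats was set against that in TBIN rats for every miRNA, and 125 passed. Among those named, the difference of differences on the log2 scale was 6.32 for miR-337-3p, 5.95 for miR-673-3p, 6.62 for miR-708-3p and 1.90 for miR-9a-3p. It was -2.01 for miR-322-5p, -6.79 for miR-1b, -6.21 for miR-1-3p, -2.77 for miR-190a-5p and -1.92 for miR-223-3p. Between injured and sham rats 20 passed, with 2.55 for miR-673-3p, 2.39 for miR-337-3p and 2.62 for miR-708-3p.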

How the results depend on the processing

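Against 10 miRNAs in the fit of 11 rats, DESeq2 called 50, upper-quartile factors 16, TMM over the 11 rats 17, library totals 18, the fit of all 29 rats 31, the model without outcome 23 and thinned counts 16. TBIN rats alone gave 74 and TBIE rats alone 45, each on opposite sides of the division of libraries. The site-by-outcome term gave 31, and 34 without UCLA TBIE 1, while Monash TBIN against UCLA TBIE gave 0 and Monash TBIE against UCLA TBIN 28. With the red cell ratio as a term the count was 0. With the replicate number as a block it was also 0, with 54 at an unadjusted p below 0.05, but the numbers do not pair the rats. Leaving out 1 rat gave 0 to 28. The cause of these changes was not tested. The 10 miRNAs kept their direction in 21 settings and without each of 11 rats, with differences of 0.54 to 3.57 in size.

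Leaving out 1 rat moved the sham count from 65 to between 25 and 50, the injured against sham count from 20 to between 5 and 23, and the TBIE against TBIN count from 125 to between 61 and 179. The injured against sham count was 46 with DESeq2 and 13 with at least 10 counts in each rat. It was 0 with the effect of the division taken out, a contrast that sets only TBIN rats against sham rats. The difference in detected miRNAs lay between -2.2 and 7.08, and that of the red cell ratio between -0.87 and -0.60 with 1 rat left out (-0.87 without UCLA TBIN 3, which passed) and at -1.12 with miR-486.

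Among miRNAs that did not pass, the sign turned in TBIE rats alone for miR-132-3p (-0.36), miR-211-5p (-0.23), miR-223-3p (-0.72), miR-212-3p (0.36), miR-323-3p (-0.26) and miR-124-3p (0.49), and in TBIN rats alone for miR-9a-3p (-0.63), miR-322-5p (0.73) and miR-28-3p (0.25). With library totals it turned for miR-322-5p (0.13), miR-28-3p (0.21) and miR-124-3p (0.27), and with the block for miR-183-5p (-0.24) and miR-322-5p (0.085). miR-28-3p was at 0.032 with the red cell ratio and at 0.035 with thinned counts. miR-124-3p was at 0.00038 with DESeq2 factors, 0.064 with miR-28-3p as reference, 0.035 with TMM over 11 rats, 0.029 over all 29 rats, 0.030 with the site-by-outcome term and 0.31 between Monash TBIE and UCLA TBIN. Between Monash TBIN and UCLA TBIE, miR-212-3p was at 0.039 and miR-183-5p at -0.12. With 1 rat left out, miR-9a-3p ranged from -0.0062 to 0.46, miR-183-5p from -0.31 to 0.51, miR-322-5p from -0.34 to 0.21, miR-28-3p from -0.18 to 0.052 and miR-124-3p from -0.33 to 0.16.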
